A study of Mus musculus with 6 samples.

Results

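Resting B-lineage cells of mouse bone marrow that carried a productive immunoglobulin heavy chain together with a productive light chain were described in 3 groups of C57BL/6 mice. There were 2234 of them (here called both-chain cells) among 26915 retained cells: 1313 of 9509 in wild-type mice of 12 weeks ("young"), 865 of 7850 in wild-type mice of 100 weeks ("aged") and 56 of 9556 in nfkbie-/-nfkbib-/-nfkbia+/- mice of 12 weeks ("IkB-deficient"). Retained cells had 500 or more unique transcript counts (UMIs) and 300 or more genes, with no more than 10% of UMIs from mitochondrial genes. The cells were chosen by these measured values: a both-chain cell also had no UMI of the cycling genes Mki67, Top2a, Cdk1 and Birc5, at least 1 UMI of Cd79a (the B cell receptor's signalling chain), fewer than 10 of Jchain (a plasma cell gene), at most 1 of Fcer2a and Fcmr together (receptors of mature B cells), and at least 1 productive IGH and 1 productive IGK or IGL contig. Every group is a pool of 2 mice, read out as 1 library for gene expression and 1 for V(D)J sequences (10x Genomics 5' assay). Without replicates, differences between groups could not be tested. Intervals are 95% and cover counting error only. In all 3 groups the sort took B220+ cells and removed those with T cell (CD8a, CD3e), myeloid (Gr-1, CD11b, F4/80) or CD49b staining, and likewise those with IgM or IgD. The last step removes cells that show a completed heavy and light chain pair at the surface.

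A B cell precursor joins its heavy chain genes first. The heavy chain then pairs with the surrogate light chain, made from Igll1 and Vpreb genes, and the cell divides. Small resting pre-B cells use the Rag recombinase to join a V to a J segment of the kappa locus, and of the lambda locus where kappa fails, which completes the receptor of an immature B cell. NF-kB, a family of dimeric transcription factors, is held in the cytoplasm by IkB proteins, among them those encoded by Nfkbia, Nfkbib and Nfkbie.

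The light-chain joins below were the ones carried by the most both-chain cells of the lambda and of the kappa locus, with a short kappa join found in aged cells alone. They are the CDR3 (the part of the chain that spans the join), 5' to 3', from the deposited contig tables. Capitals mark all that follows the shared start of the lambda joins or, for kappa, the 3' end shared by most chains of that J segment.
IGLV1-IGLJ1: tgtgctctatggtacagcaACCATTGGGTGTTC
IGLV2-IGLJ2: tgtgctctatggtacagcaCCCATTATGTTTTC
IGLV1-IGLJ3: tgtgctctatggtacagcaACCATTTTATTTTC
IGKV1-135-IGKJ1: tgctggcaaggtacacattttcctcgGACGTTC
IGKV8-16-IGKJ1: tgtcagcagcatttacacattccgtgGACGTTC
IGKV1-135-IGKJ1, other join: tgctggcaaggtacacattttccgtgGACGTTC
IGKV6-15-IGKJ2: tgtcctctCACGTTC
The 3 lambda joins share their first 19 bases. They were carried by 36, 32 and 17 young cells, by 24, 21 and 16 aged cells, and by 0, 3 and 0 IkB-deficient cells. Together they made up 85 of 159 lambda chains in young, 61 of 96 in aged and 3 of 7 in IkB-deficient cells, so a few identical joins filled much of the lambda repertoire. The first 3 kappa joins were carried by 21, 18 and 13 young cells, by 7, 3 and 6 aged cells, and by 0, 1 and 0 IkB-deficient cells.

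The label was checked against its markers. Igkc, the kappa constant region, stood at 943 per 1000000 UMIs of all genes in young both-chain cells (914 to 972), against 773 in resting cells of the same library with a productive heavy chain and no productive light chain (here called heavy-only cells). It stood at 799 against 598 in aged and at 1453 against 1239 in IkB-deficient cells. Other values are CPM, that is UMIs per 1000000, summed over the cells of a library and scaled without immunoglobulin and T cell receptor genes. Ms4a1, which encodes CD20, was at 106 against 63.4 CPM in young and at 69.8 against 32.2 in aged cells. In IkB-deficient cells it was at 64.6 against 88.8 CPM, from 13 UMIs (fold 0.73, 0.38 to 1.28), so this marker did not set the cells apart there. Cd2, a surface protein that appears at the pre-B stage, was near equal at 302 against 307, 188 against 192 and 79.5 against 72.1 CPM. Cd79a, part of the rule for both kinds of cell, was at 5368 against 5354 CPM in young and 4573 against 4637 in aged cells. In the IkB-deficient library it was lower in both-chain than in heavy-only cells. Cd74, the chaperone of MHC class II molecules, was at 1181 against 1153, 1826 against 1004 and 8215 against 6024 CPM. Thus Igkc was higher in 3 of 3 libraries, but the rule split the cells by productive light contigs, so this is not independent of it. Cd74 was higher in aged and IkB-deficient cells, while in young cells its counting interval included a fold of 1. Cd2, Cd79a and in IkB-deficient cells Ms4a1 did not mark the cells, which are therefore called by their rule.

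The rule's limit on Fcer2a and Fcmr cut through a continuous range. Of the young cells, 951 had 0 and 362 had 1 of these UMIs, and 98 cells just outside the limit had 2. The numbers were 685, 180 and 61 in aged and 37, 19 and 19 in IkB-deficient cells. Ms4a1 stood at 90.4 CPM in young cells with 0, 144 with 1, 269 with 2 and 486 with 3 or more. In the aged library it stood at 45.5, 160, 196 and 570 CPM, and in the IkB-deficient library at 58.2, 78.3, 350 and 687 CPM. Requiring no cycling UMI left out 152 young, 45 aged and 3 IkB-deficient cells that had 1. No test is given for these values, since they belong to the rule.

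Depth was alike between the sets: both-chain cells had medians of 3134, 2738 and 3115 UMIs in young, aged and IkB-deficient libraries. They summed to 4447360, 2698291 and 205123 UMIs, so that 20 CPM, the lowest mean level at which a gene counted as measured, was worth 87.2, 53.0 and 4.02 UMIs. Nfkbie was at 221 CPM in young both-chain cells, against 173 (aged) and 9.94 (IkB-deficient, from 2 UMIs), and Nfkbib at 76.6, 78.5 and 29.8 (6 UMIs). Nfkbia, of which 1 working copy remained, was at 881, 991 and 527 CPM. The pools differed in sex: 807 young both-chain cells had Y-linked UMIs and no Xist, and none had Xist alone, against 334 and 172 in aged and 0 and 45 in IkB-deficient cells. Sex and group cannot be told apart for the IkB-deficient library. Scrublet, which scores cells by their likeness to simulated doublets, put 116, 53 and 3 both-chain cells among the top-scoring cells of their libraries. Young and aged libraries shared 85 barcodes, 3 of them both-chain in each, and the other pairs shared 108 and 96. Summed marker lists of neutrophil and erythroid cells stayed under 5 CPM, those of T cells at 11.7 to 49.7 with Cd3e at 0, and those of NK or innate lymphoid cells at 34.8 to 55.1. The monocyte or conventional dendritic list summed to 445, 624 and 333 CPM, of which Cst3 gave 417, 541 and 283, and the plasma cell list to 1322, 1392 and 1710, of which Mzb1 gave 726, 676 and 1178. Their part in the results was not tested.

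Both-chain cells were far fewer in the IkB-deficient library. They made up 13.8% of what was retained in the young library (13.1 to 14.5), 11.02% in the aged (10.3 to 11.7) and 0.586% in the IkB-deficient library (0.443 to 0.760). The young share was 23.6 times the IkB-deficient share (18.0 to 31.4) and 1.25 times the aged share (1.15 to 1.37). Among retained cells with a productive heavy chain (7249 young, 4256 aged and 1105 IkB-deficient) the shares were 18.1%, 20.3% and 5.07%. On that base the young share was 3.57 times the IkB-deficient share (2.73 to 4.76), and the aged share was 1.12 times the young share (1.03 to 1.22), so the order of young and aged turned with the denominator. Heavy-only cells numbered 2974, 1626 and 455, and both-chain cells with at least 2 UMIs of Fcer2a and Fcmr numbered 147, 140 and 38. Of resting Cd79a-positive cells with both chains, those within the limit on Fcer2a and Fcmr made up 89.9%, 86.1% and 59.6%. Since IgM and IgD at the surface led to removal in the sort, these shares describe what passed the gate and not the marrow.

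**Figure D1:**
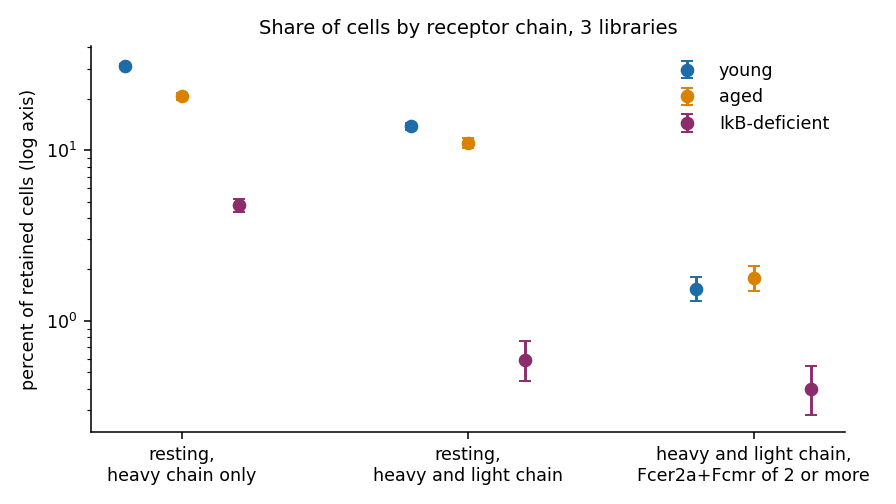
Percent of retained cells (log axis) in each library for 3 sets of cells, with 95% Clopper-Pearson intervals. Heavy-only and both-chain cells are lower in the IkB-deficient library, at 4.76% and 0.586%, than in the young library, at 31.3% and 13.8%.

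Both-chain cells were compared with heavy-only cells of the same library, a step that holds age, genotype and library constant. The surrogate light chain genes were lower in both-chain cells in 3 of 3 libraries. Igll1 (chr16:16860671-16863985, mm10) was at 414 CPM in heavy-only and 188 in both-chain young cells, at 1029 and 415 in aged cells, and at 2385 and 731 in IkB-deficient cells. Vpreb1 (chr16:16868401-16869255), its partner close by on the same chromosome, was at 363 and 184, 778 and 272, and 1822 and 507 CPM. Vpreb2 was at 37.3 and 12.2, 102 and 41.9, and 218 and 69.6 CPM. The levels, and the differences in CPM, were greater in the aged and IkB-deficient libraries, and IkB-deficient both-chain cells still held more Igll1 than young heavy-only cells.

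Other genes of early stages were lower as well. Dntt, the polymerase that adds untemplated bases at heavy-chain joins, was at 144 and 72.0 CPM in young heavy-only and both-chain cells, at 396 and 182 in aged and at 469 and 248 in IkB-deficient cells. Lef1, a Wnt pathway transcription factor, was at 121 and 80.0, 222 and 106, and 225 and 144 CPM. Myc, a driver of growth and division, was at 26.7 and 6.19, 46.2 and 18.1, and 100 and 9.94 CPM. By contrast the recombinase genes differed little in young cells, with Rag1 at 206 and 198 and Rag2 at 116 and 98.9 CPM. In aged cells Rag1 was at 242 and 196 CPM and in IkB-deficient cells at 141 and 99.4. Il7r, the interleukin-7 receptor of pro-B and pre-B cells, was at 422 and 410, 463 and 473, and 400 and 293 CPM, so it did not separate the sets in wild-type mice.

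**Figure D2:**
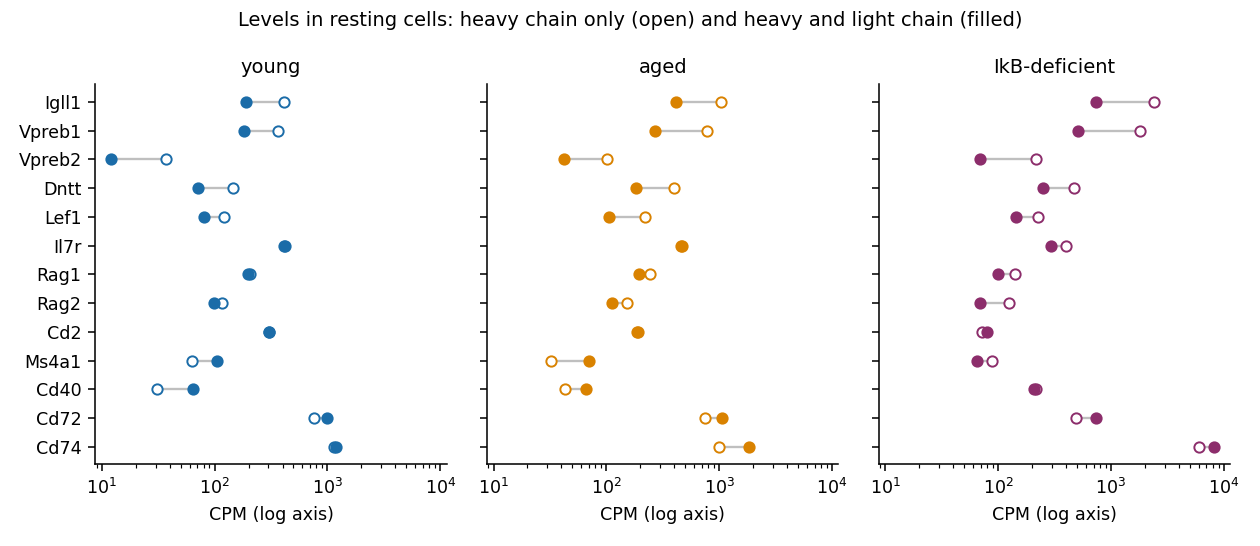
CPM (log axis) of 13 genes in heavy-only cells (open circles) and both-chain cells (filled circles) of each library. Igll1, Vpreb1, Vpreb2, Dntt and Lef1 are lower in both-chain cells in 3 of 3 libraries, and Il7r lies at nearly the same level in the young and aged libraries.

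The surrogate light chain and Dntt transcripts that remained were concentrated in few cells. Igll1 UMIs came from 115 of the 1313 young both-chain cells, 131 of the 865 aged cells and 14 of the 56 IkB-deficient cells. Cells among the top Scrublet scores held 64.7% of these UMIs in young mice, against 56.3% (aged) and 0% (IkB-deficient). They held 62.8%, 58.5% and 0% of Vpreb1 UMIs and 58.6%, 60.5% and 4.0% of Dntt UMIs. Of the 50 Dntt UMIs in IkB-deficient cells, 27 lay in 1 cell. Without such cells in either set, Igll1, Vpreb1, Vpreb2 and Dntt stayed past 1.5-fold lower in 3 of 3 libraries. This is not an independent check. In wild-type mice the cells left out held most of the Igll1, Vpreb1 and Dntt UMIs of both-chain cells, so leaving them out lowers that level. In the IkB-deficient library they held almost none.

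Of 5874 genes measured in the 3 libraries, 9 (0.153%) were past 1.5-fold higher in both-chain cells in 3 of 3 libraries and 14 (0.238%) past 1.5-fold lower, where past means the log2 ratio of CPM + 5. The 14 lower genes were Vpreb2, Myc, Igll1, Vpreb1, Dntt, Ifitm2, Srfbp1, Hmgn2, Selenom, Egfl7, Stmn1, Erg, Ptpn7 and Impdh1. Hmgn2 encodes a nucleosome-binding protein and Stmn1 a regulator of microtubules, both abundant in dividing cells, and Erg is a transcription factor of early progenitors. All of the 14 but Erg also stayed past 1.5-fold lower in 3 of 3 libraries once cells among the top Scrublet scores, or cells rich in plasmacytoid dendritic cell transcripts, were left out. The 9 higher genes were Gm43218, Cd7, Runx2, Dtx1, Cybb, Slamf9, Lat2, Tyrobp and Ctsh. Within single libraries, 2 genes (0.0345%) were past 2-fold higher and 2 (0.0345%) lower in young, 8 (0.138%) and 16 (0.276%) in aged, and 161 (2.72%) and 178 (3.01%) in IkB-deficient cells, where counts are smallest.

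Transcripts of plasmacytoid dendritic cells, interferon-producing cells that share B220 with the B lineage, moved with the higher genes. The 9 listed markers summed to 354 CPM in young both-chain and 241 in heavy-only cells, to 423 and 299 in aged, and to 1054 and 632 in IkB-deficient cells. They were concentrated: 13 young, 13 aged and 3 IkB-deficient both-chain cells with at least 10 of these UMIs held 56.3%, 70.9% and 79.2% of them, and 8, 7 and 3 of those cells were among the top Scrublet scores. Siglech, a receptor of these cells, was at 39.2 against 19.2 CPM in young, 37.4 against 26.1 in aged and 154 against 87.7 in IkB-deficient cells. Without the cells of at least 10 such UMIs, 3 of the 9 genes stayed past 1.5-fold in 3 of 3 libraries, namely Gm43218, Dtx1 and Slamf9, and the same 3 stayed without the cells of top Scrublet scores. Cd7 and Runx2 lost their direction in young cells without the plasmacytoid-rich cells, at log2 ratios of -0.20 and -0.01. Runx2 is itself 1 of the 9 listed markers that chose those cells, so its fall is not independent of that choice. In IkB-deficient cells, where 3 cells were left out, Lat2 went from 0.74 to -0.86, Runx2 from 1.22 to -0.66 and Cd7 from 1.45 to 0.

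**Figure D3:**
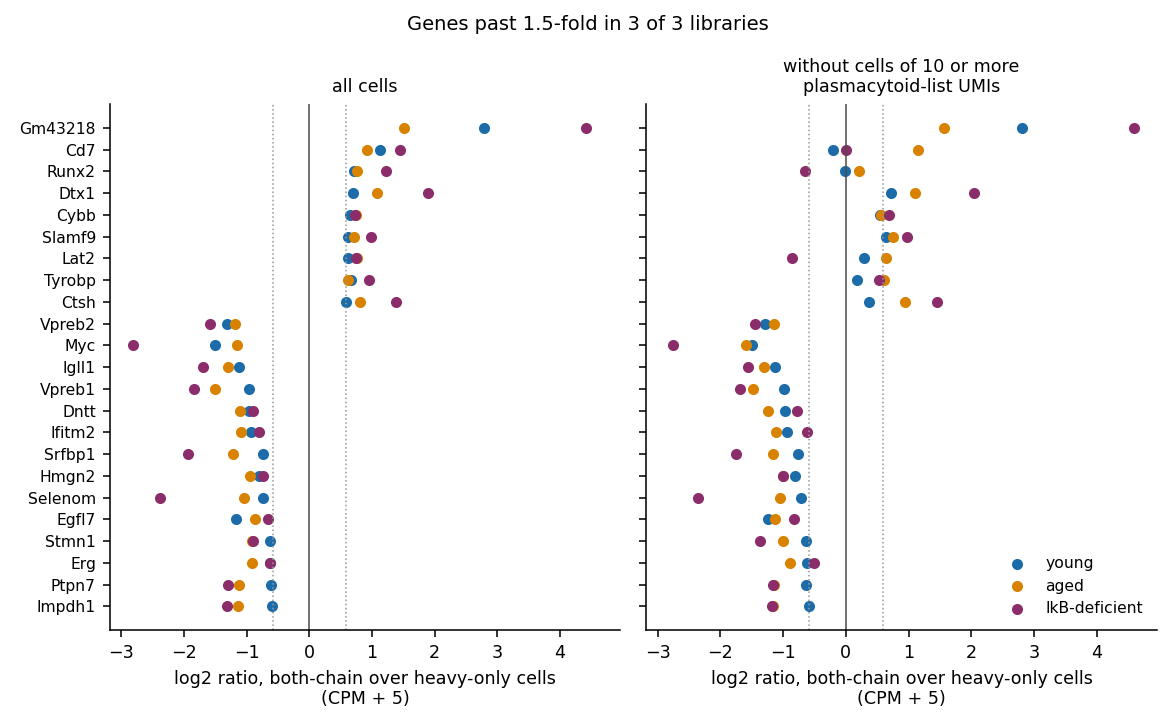
Log2 ratio of CPM + 5 in both-chain over heavy-only cells for the 23 genes past 1.5-fold (dotted lines) in 3 of 3 libraries, with all cells (left) and without cells of at least 10 plasmacytoid-list UMIs (right). Points are libraries; Gm43218, Dtx1 and Slamf9 stay beyond the right dotted line in each library on the right.

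Dtx1 encodes Deltex, a ubiquitin ligase linked to Notch signalling in B cells. It was at 31.2 CPM in heavy-only and 53.7 in both-chain young cells (fold 1.72, 1.45 to 2.04), at 12.4 and 31.7 in aged cells (2.56, 1.83 to 3.6) and at 20.5 and 89.5 in IkB-deficient cells (4.37, 2.35 to 7.85, from 18 UMIs). Slamf9, a member of the SLAM receptor family, was at 36.3 and 58.7 in young, 38.6 and 66.4 in aged and 7.53 and 19.9 CPM in IkB-deficient cells, the last from 4 UMIs. Among receptor genes of B cells, Cd72, an inhibitory coreceptor, was higher in 3 of 3 libraries, at 756 and 1000, 744 and 1062, and 490 and 735 CPM. Cd40, the receptor for T cell help, was at 31.1 and 63.8 CPM in young and 42.6 and 65.7 in aged cells, but at 217 and 209 in IkB-deficient cells, where heavy-only cells already stood above the young both-chain level.

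Gm43218 had the widest difference and followed the light chain itself. It was at 3.42 CPM in heavy-only and 53.0 in both-chain young cells (fold 15.5, 10.8 to 22.9), at 17.3 and 58.9 in aged cells (3.40, 2.61 to 4.45) and at 2.69 and 159 in IkB-deficient cells (59.1, 22.9 to 194). In the deposited feature list it stands between Igkv8-24 and Igkv6-23, that is among kappa V genes. Cells with a productive IGKV8-16 contig held 83.5% of its UMIs in young both-chain cells, 91.0% in aged and 100% in IkB-deficient cells. A UMI of it was found in 37 of 85 young cells with that contig, in 14 of 38 aged cells and in 3 of 5 from IkB-deficient mice, against 1.47%, 1.21% and 0% of the other both-chain cells. In heavy-only cells, those with a failed IGKV8-16 join held 58.8%, 79.1% and 20% of its UMIs. The rule chose both-chain cells by their productive light contigs, so the difference in Gm43218 is not independent of it.

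MHC class II genes, which present antigen to T cells, went in opposite directions between libraries. H2-Eb1 was at 70.4 CPM in heavy-only and 45.2 in both-chain young cells, at 59.95 and 192 in aged and at 522 and 934 in IkB-deficient cells. H2-Aa was at 163 and 143, 160 and 344, and 1297 and 2147 CPM. Of the measured class II genes, 3 of 8 were higher in both-chain cells in young (median log2 ratio -0.10), and 8 of 9 in aged cells (0.60). In IkB-deficient cells 10 of 10 were higher (0.72). Over all measured genes 50.1%, 49.4% and 51.0% were higher in the 3 libraries, with medians of 0.0003, -0.0026 and 0.0097. Class-switched cells, described below, held 41.6% of the aged H2-Eb1 UMIs, and without them H2-Eb1 was at 115 CPM, H2-Aa at 247 and the median of the list at 0.43. The difference between libraries was not tested.

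Aged both-chain cells were next compared with young ones. Of 5776 measured genes, 31 (0.537%) were past 2-fold higher and 7 (0.121%) past 2-fold lower, 47.0% of all measured genes were higher, and the median log2 ratio was -0.01. In the 172 aged cells with Xist and no Y-linked UMIs, 53 genes were past 2-fold higher and 18 past 2-fold lower. Fewer cells mean wider counting error, so these counts cannot be set directly beside those of all aged cells. The immediate early genes, transcription factors and phosphatases that cells induce quickly after a stimulus, were higher as a list: 13 of 13 measured, 6 of them past 2-fold, with a median log2 ratio of 0.85. Fos was at 406 CPM in young against 1425 in aged cells (fold 3.51, 3.32 to 3.72), and its aged UMIs were spread over 727 of 865 cells. Egr1 was at 11.7 and 42.3, Dusp1, a phosphatase, at 43.3 and 142, and Klf4, outside the list, at 17.9 and 57.7 CPM. Jun was at 1164 and 2097, Junb at 328 and 576, and Zfp36, an mRNA-destabilising protein, at 1502 and 2237 CPM. Heavy-only cells had Junb at 296 CPM in young and 518 in aged mice. Against heavy-only cells of the same library, the list had a median log2 ratio of -0.0027 in young and 0.10 in aged cells. The aged difference was thus not particular to both-chain cells. In aged cells with Xist and no Y-linked UMIs the median was 0.72 on the log2 scale, so the list was higher there too.

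MHC class II genes were higher in aged cells as well, and class-switched cells held a large part of these UMIs. Of 9 measured genes 7 were higher, 2 of them past 2-fold, with a median log2 ratio of 0.79. Split by sex transcripts, this median was 0.54 where Y-linked UMIs alone were seen and 1.18 where Xist alone was. The list was thus higher in either part of the aged pool, but by how much depended on the part counted. The young pool had no both-chain cell with Xist alone to set beside the second value, and the part of sex was not tested. H2-Eb1 was at 45.2 CPM in young against 192 in aged cells (fold 4.26, 3.61 to 5.05), H2-Aa at 143 and 344, and Cd74 at 1181 and 1826, while H2-Oa was at 44.3 and 41.9 and H2-Ob at 164 and 141. A productive heavy contig with an IgG or IgA constant region was found in 16 aged cells (1.85%), 3 young cells and no IkB-deficient cell. These are called class-switched here, although 6 of the 16 aged cells and 1 of the 3 young cells also held another productive heavy contig. These 16 cells held 41.6% of H2-Eb1, 29.9% of H2-Aa and 24.0% of Cd74 UMIs of aged both-chain cells, with Cd74 at 17960 CPM against 1423 in the rest, and no UMI of Igll1 or Vpreb1. Without them the median of the list was 0.42. Cells with no Fcer2a or Fcmr UMI had Cd74 at 1131 CPM in young and 1250 in aged, and H2-Aa at 140 and 229. Cells with 1 such UMI had Cd74 at 1304 and 3970 CPM, and H2-Aa at 149 and 771. The median aged cell, like the median young cell, had 1 Cd74 UMI, and the 5% of cells with the most held 62.4% of Cd74 UMIs in aged and 40.5% in young cells, so the aged difference lay in few cells.

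For some other genes with wide aged differences, a large part of the aged UMIs lay in few cells. Apoe, a lipid carrier (chr7:19696244-19701310), was at 2.52 CPM in young cells (11 UMIs) and 43.4 in aged cells (115 UMIs, fold 17.2, 9.26 to 35.4), from 22 aged cells, and the 16 class-switched cells held 44.3% of it. Ly6a, also named Sca-1, was at 4.82 and 37.0 CPM, and cells rich in plasmacytoid transcripts held 52.0% of the aged UMIs. Gimap4, a lymphocyte GTPase, was at 8.03 and 41.5 CPM, with 33.6% of the aged UMIs in class-switched cells. S100a6, a calcium-binding protein, was at 19.7 and 79.6, and Oaf at 17.4 and 60.4 CPM.

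Among genes lower in aged cells was Rela, which encodes the p65 subunit of NF-kB (chr19:5637442-5648134). It was at 62.8 CPM in young cells (274 UMIs), 15.5 in aged cells (41 UMIs; fold 0.25, 0.17 to 0.34) and 74.5 in IkB-deficient cells. Heavy-only cells stood at 53.8 CPM of Rela in young and 16.9 in aged mice. The other lower genes included Col5a3 at 45.0 and 13.6, Klhl14 at 51.8 and 21.9, Egfl6 at 42.2 and 17.4, H1f0, a linker histone of non-dividing cells, at 94.5 and 43.0, and Chd9, a chromatin remodeller, at 326 and 156 CPM. The other 4 NF-kB subunits stayed within 2-fold, with Nfkb1 at 76.1 and 64.9, Nfkb2 at 98.6 and 103, Rel at 58.3 and 67.9 and Relb at 104 and 106 CPM. NF-kB target genes were higher in 9 of 17, with a median of 0.03. Early progenitor genes were higher in 5 of 7, with a median of 0.38, among them Igll1 at 188 and 415 and Dntt at 72.0 and 182 CPM. Interferon response genes were lower in 6 of 7, with a median of -0.19, led by Ifi27l2a at 613 and 434 CPM. In aged cells with Xist and no Y-linked UMIs that median was 0.39, so its direction depended on which aged cells were counted. Genes of V(D)J recombination (6 of 11 higher, median 0.07), B cell receptor signalling (7 of 20, -0.07) and heat shock (5 of 9, 0.02) lay close to the median of all genes.

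**Figure D4:**
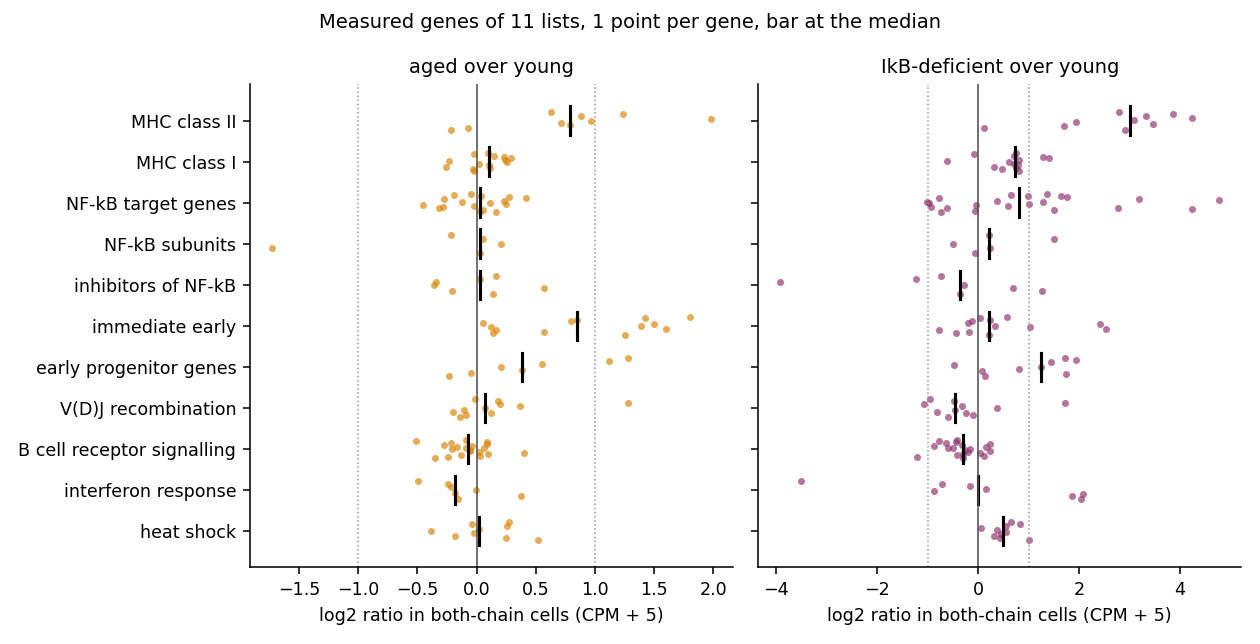
Log2 ratio of CPM + 5 in aged over young (left) and IkB-deficient over young (right) both-chain cells, 1 point per measured gene of 11 lists, with a bar at each median and dotted lines at 2-fold; the axes differ in range. MHC class II has medians of 0.79 and 3.0, and immediate early genes 0.85 and 0.21.

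In IkB-deficient both-chain cells many more genes stood apart from young cells, and the small number of cells widens every interval. Of 5871 measured genes, 345 (5.88%) were past 2-fold higher and 276 (4.7%) past 2-fold lower, 50.7% were higher, and the median log2 ratio was 0.01. MHC class II genes were higher in 10 of 10, 9 of them past 2-fold, with a median log2 ratio of 3.0. H2-Eb1 (chr17:34305867-34316674) was at 45.2 CPM in young against 934 in IkB-deficient cells (fold 20.7, 16.8 to 25.4), and H2-Aa (chr17:34282744-34287823) at 143 and 2147. Cd74 was at 1181 and 8215 CPM (6.96, 6.58 to 7.35), and Ciita, the master regulator of class II transcription, at 2.98 and 54.7. The difference was spread over the cells, unlike that with age: the median cell had 15.5 Cd74 UMIs, and H2-Aa UMIs came from 44 of 56 cells. H2-Ob, at 164 and 179 CPM, was the member within 2-fold. MHC class I genes were higher in 12 of 14, 2 of them past 2-fold, with a median of 0.73.

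NF-kB target genes were higher in 14 of 22, 10 of them past 2-fold higher and 1 lower, with a median log2 ratio of 0.82. Ltb, a cytokine of lymphoid organ formation (chr17:35194507-35196305), was at 97.0 CPM in young against 919 in IkB-deficient cells (fold 9.48, 7.93 to 11.3), from 37 cells. Ccnd2, which encodes cyclin D2, was at 8.26 and 244 CPM, from 26 cells. Nfkb2, the p100 subunit gene, was at 98.6 and 288, Cd40 at 63.8 and 209, Tnfaip3, an inhibitor of the pathway, at 72.7 and 194, Irf1 at 134 and 333 and Cd69 at 439 and 885 CPM. The other subunit genes differed less, with Nfkb1 at 76.1 and 89.5, Rela at 62.8 and 74.5, Relb at 104 and 99.4 and Rel at 58.3 and 39.8 CPM. Among the inhibitors 5 of 7 were lower, the 3 targeted genes among them, and Bcl3, an atypical IkB protein, was at 46.6 and 119 CPM.

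The promoters of Ltb and Nfkb2 are shown as examples of genes past 2-fold higher that hold a form of the NF-kB site, GGG followed by any 2 bases and TTTCC. Tnfaip3, which was also past 2-fold higher, and Nfkbia, which was lower, hold it too and are not shown. Each stretch is from the RefSeq promoter windows of GRCm38.p6 (250 bases before to 50 after a start site), on the plus strand, with the match in capitals.
Ltb, chr17:35194395-35194454: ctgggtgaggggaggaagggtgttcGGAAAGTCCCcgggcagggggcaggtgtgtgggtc
Nfkb2, chr19:46304677-46304736: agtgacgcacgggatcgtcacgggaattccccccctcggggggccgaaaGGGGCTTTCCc
Nfkb2, chr19:46305680-46305739: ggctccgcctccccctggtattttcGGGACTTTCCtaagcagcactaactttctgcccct
In Ltb the match lies on the opposite strand, and in Nfkb2 on the same strand as the gene. Searched on both strands, the motif was in 535 of 32851 windows (1.63%), in 512 of 27025 genes (1.89%), and in 5 of the 20 NF-kB target genes with a window (of 28 listed), which were Tnfaip3, Traf2, Ltb, Nfkb2 and Nfkbia. It was in none of the 7 MHC class II genes with a window and in none of 9 among the 10 genes highest by ratio in IkB-deficient over young cells. A match is a run of letters and not a measured site.

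Of those 10 genes, H2-Eb1 and Ccnd2 are given above, and the other 8 stood at 3.67 CPM or less in young cells. Ebi3, a cytokine subunit (chr17:55952623-55957022), was at 0.46 CPM in young against 144 in IkB-deficient cells, but its 29 UMIs came from 6 cells, 16 of them from 1 cell. Adm, a vasoactive peptide, at 3.67 and 214 CPM, and Wnt10b, a Wnt ligand, at 2.98 and 184, each came from 24 cells. Fscn1, an actin-bundling protein, was at 0.69 and 134 CPM. Il9r, a cytokine receptor, and Aire, the thymic regulator of self-antigen expression, had no UMI in young cells and 22 and 20 in IkB-deficient cells, which put them at least 159-fold and 144-fold higher against a floor of 3 counts. Gdpd3 was at 0.69 and 104 CPM and Lmo7 at 0.46 and 79.5.

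Several B-lineage genes were lower in IkB-deficient cells. Ebf1, a transcription factor that specifies B cells, was at 4696 CPM in young against 1198 in IkB-deficient cells (fold 0.26, 0.22 to 0.29). Foxp1, another B-lineage factor, was at 1062 and 512, Cd2 at 302 and 79.5, Xrcc6, which encodes the end-joining protein Ku70, at 716 and 338, and Rag1 at 198 and 99.4 CPM. The list of light chain locus and B-lineage transcription factors went both ways, with 10 of 26 higher, 2 past 2-fold in either direction and a median log2 ratio of -0.23. The 2 past 2-fold higher were Irf8 at 362 and 800 CPM and Bcl11a at 73.2 and 273, and the 2 lower were Ebf1 and Foxp1. V(D)J recombination genes were lower in 9 of 11, with a median log2 ratio of -0.45, and B cell receptor signalling genes in 15 of 20, with a median of -0.31. Early progenitor genes were higher in 8 of 9, 5 of them past 2-fold, with a median of 1.24, and heat shock genes in 10 of 10, 1 past 2-fold, with a median of 0.50. The lowest genes included Nfkbie, Ifi27l2a, an interferon-induced gene, at 613 and 49.7, Ceacam1, an adhesion molecule, at 70.0 and 9.94, and Hist3h2ba at 58.0 and 4.97 CPM. Natd1 had 211 UMIs in young cells and none in the IkB-deficient ones.

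In the light chains of both-chain cells, kappa outnumbered lambda alike in the 3 libraries. Lambda was the light chain of 159 of 1313 young cells (12.1%, 10.4 to 14.0), 96 of 865 aged cells (11.1%, 9.08 to 13.4) and 7 of 56 IkB-deficient cells (12.5%, 5.18 to 24.1). Among kappa chains the J segments came in the order IGKJ1, IGKJ5, IGKJ2 and IGKJ4 in young and aged cells, at 30.5%, 27.8%, 22.96% and 18.7% in young and 30.8%, 27.6%, 26.4% and 15.2% in aged. IkB-deficient cells had 34.7%, 26.5%, 28.6% and 10.2%, within wide intervals. IGKJ3, whose joining signal is known to be defective, was in 0 of 1154 young kappa chains, which allows up to 0.319%. Use of IGKJ5, the segment farthest from the V genes and reached after other joins, did not differ beyond its intervals.

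The 5 most used kappa V genes were IGKV1-135, IGKV8-16, IGKV17-121, IGKV19-93 and IGKV9-120. IGKV8-16 made up 7.02% of kappa chains in young (5.61 to 8.65) and 4.42% in aged cells (3.08 to 6.12), and IGKV1-135 6.76% and 8.58%. The IGKV4 family was at 21.5% in young and 16.8% in aged cells. The short IGKV6-15-IGKJ2 join printed above was the kappa chain of 10 aged both-chain cells. An 11th carried it beside another chain, and the median of its contig was 1 UMI in these 11 cells, which had 10 different heavy chains. In 42 other retained aged cells with this join the median was 57.5 UMIs, and 12 of them shared an IGHV1-64 heavy chain. Whether the contigs of 1 UMI were free transcripts of the cells with many was not tested. Over all both-chain cells the light contig had 1 or 2 UMIs in 10.97% of cells of the young, 11.9% of the aged and 14.3% of the IkB-deficient library.

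**Figure D5:**
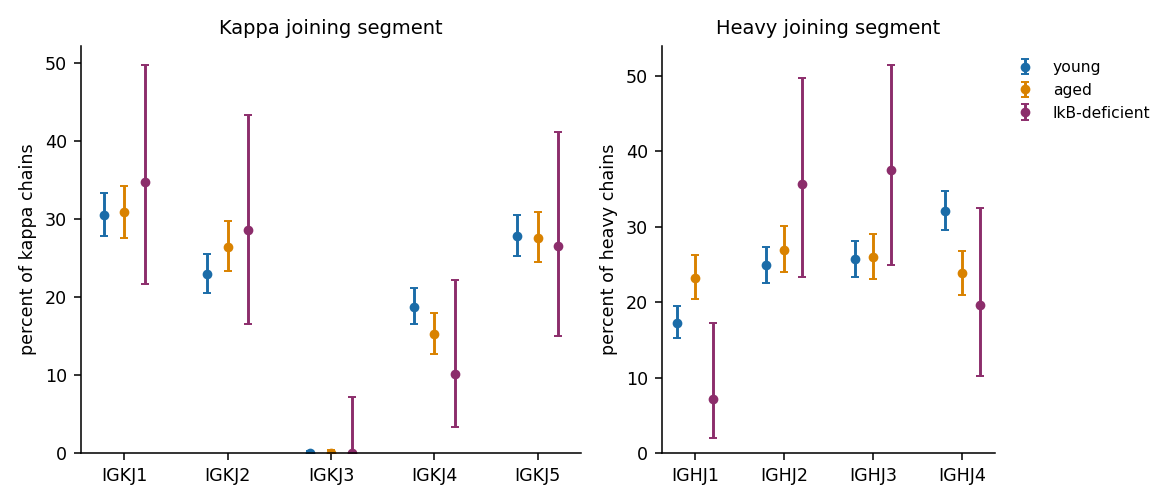
Percent of kappa chains by IGKJ segment and of heavy chains by IGHJ segment in both-chain cells, with 95% Clopper-Pearson intervals. Kappa J use is alike within the intervals for IGKJ1 and IGKJ5, and IGHJ4 is at 32.1% in young against 23.8% in aged cells.

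Heavy-chain use differed by library in both-chain and in heavy-only cells. IGHV1, the largest and mostly distal V family, was in 56.2% of young both-chain cells (53.5 to 58.9), 51.0% of aged (47.6 to 54.4) and 35.7% of IkB-deficient cells (23.4 to 49.6), against 55.9%, 51.6% and 31.2% of heavy-only cells. IGHJ4 was in 32.1%, 23.8% and 19.6% of both-chain cells and 31.2%, 21.1% and 15.2% of heavy-only cells. IGHJ1 was in 17.3%, 23.2% and 7.14% of both-chain cells and 16.5%, 20.3% and 14.3% of heavy-only cells, where the IkB-deficient intervals (1.98 to 17.3 and 11.2 to 17.8) overlap. The median CDR3 was 45, 42 and 39 bases long in both-chain cells and 45, 42 and 42 in heavy-only cells. IGHJ2 in aged mice differed between the 2 kinds of cell beyond the intervals, at 26.9% of both-chain (24.0 to 30.03) and 34.6% of heavy-only cells (32.3 to 36.9).

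Failed light-chain joins set the 2 kinds of cell apart in wild-type mice. A non-productive contig with both a V and a J segment was found in 25.8% of young (23.5 to 28.3) and 22.4% of aged both-chain cells (19.7 to 25.4), against 43.2% (41.5 to 45.0) and 42.4% (40.0 to 44.8) of heavy-only cells. In the IkB-deficient library the shares were 21.4% (11.6 to 34.4) and 18.9% (15.4 to 22.8). IkB-deficient heavy-only cells thus carried a failed join less often than wild-type ones, a difference that was not tested. The rule set no limit on failed contigs, but a cell whose only light-chain join failed can enter the heavy-only set alone. The difference in failed joins is therefore not independent of the rule.

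Clones were rare and light chains recurred. A pair of heavy and light CDR3 was shared by at least 2 cells in 4 clones (9 cells) in young, 7 clones (16 cells) in aged and none in IkB-deficient cells. No heavy CDR3 of 2205 was found in more than 1 library. Of 947 light CDR3, 18 were found in 3 of 3 libraries, and 57.8% of the young cells, 65.8% of the aged ones and 58.9% of those from IkB-deficient mice carried a light CDR3 that was also present in another library.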

How the data were processed

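The deposited gene-expression files hold counts (raw UMIs per gene and cell), and the deposited contig tables give UMI and read counts for every contig. Per the submitters' processing notes the authors used Cell Ranger and mm10, the release is not given in the sources used here, and software version 3.0.1 is named in the matrix headers. Libraries of a group were joined by barcode, and deposited clonotype tables were not used. With 1 library per group, counts were summed over cells, scaled per 1000000 without the 651 immunoglobulin and T cell receptor features, and compared as log2 ratios with a pseudocount of 5 CPM for genes whose mean CPM was 20 or more. Folds are plain CPM ratios with exact conditional binomial intervals, and shares have Clopper-Pearson intervals. Doublets were scored with Scrublet (scanpy 1.11.5; 0.8% per 1000 cells) and kept. The ratio, its interval and the 2-fold call were tested on simulated sums with counting error only, without variation between cells, mice or libraries. Other steps were not tested in this way. Named genes were the 10 highest and 10 lowest of a comparison, the targeted genes, the markers, and of each list the 4 most abundant and 2 most different genes. Others were picked from the lists after their values were seen. Members and lists were chosen with earlier results of these data known. Positions are RefSeq GRCm38.p6. The single-gene values of 1 list member are not reported here.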

Additional observations from a re-analysis of the deposited data

Results flagged for a closer look

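For 6 genes the log2 ratio of both-chain over heavy-only cells had opposite signs between libraries, with counting intervals of the fold on opposite sides of 1 and at least 1 ratio past 1.5-fold. The difference between libraries was not tested, since each group is 1 library. All 6 belong to the gene lists used here, 3 of them to MHC class II, so these counts are not shares of all measured genes. Of all 5874 measured genes, 17.3% were higher and 19.6% lower in 3 of 3 libraries, so signs that differ between libraries were common. In the order young, aged and IkB-deficient, H2-Eb1 was at -0.59, 1.604 and 0.84, H2-Ab1 at -0.68, 0.44 and 0.82, and H2-Aa at -0.18, 1.08 and 0.72. Blk, a kinase of the B cell receptor, was at -0.10, 0.15 and 0.60. Cd55, a complement regulator, was at 0.30 in aged and -1.43 in IkB-deficient cells, where its level was 24.8 CPM. Junb, an immediate early factor, was at 0.15, 0.15 and -0.60.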

How the results depend on the processing

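No paired analysis was possible because each group is 1 library per assay. The share of both-chain cells moved with the rule. It was 12.1% in young and 9.36% in aged cells with contigs of at least 3 UMIs, 12.2% and 9.75% with exactly 1 heavy and 1 light contig, and 10.0%, 8.73% and 0.387% (IkB-deficient) with no Fcer2a or Fcmr UMI. It was 15.5% (young) and 0.821% (IkB-deficient) after thinning to 2000 UMIs, 9.72% (aged) and 0.397% (IkB-deficient) with at least 1000 UMIs and at most 5% mitochondrial UMIs, and 18.1%, 20.3% and 5.07% of cells with a heavy chain. Genes past 2-fold higher in aged cells numbered 9 at a mean of at least 100 CPM, 56 with no minimum, 19 by the mean of per-cell CPM and 53 in aged cells with Xist alone. Lower genes numbered 1, 18, 11 (pseudocount 1) and 18 (Xist alone). In IkB-deficient cells 60 were higher and 63 lower at 100 CPM, and 769 and 937 with no minimum. The minimum level sets how many genes are measured, so counts at different minimums have no common base. Genes past 1.5-fold higher in 3 of 3 libraries numbered 1 at 100 CPM and 3 without top Scrublet scores, without plasmacytoid-rich cells, or by per-cell CPM; lower ones 4 at 100 CPM, 25 with no minimum and 8 by per-cell CPM. The aged median of MHC class II was 0.40 without Fcer2a or Fcmr UMIs and 0.42 without class-switched cells, that of immediate early genes 0.69 at 100 CPM, 0.91 per cell and 0.72 with Xist alone, and the IkB-deficient median of NF-kB targets 1.14 at 100 CPM.

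Among results whose counting interval excluded a fold of 1, signs turned as follows, and the cause was not tested. In aged against young cells, counting aged cells with Xist alone gave 0.39 for the interferon list and Ifi27l2a, -0.11 for Cd24a and -0.087 for Xrcc6. Cells with Y-linked UMIs alone gave -0.48 for Bst2 and -0.0024 for H2-K1. Bst2 was at -0.15 without plasmacytoid-rich cells, and Ltb at -0.026 without Fcer2a or Fcmr UMIs. Against heavy-only cells, leaving out plasmacytoid-rich cells gave -0.0025 for Bst2, -0.20 for Cd7 and -0.0098 for Runx2 in young, -0.24 for Bst2 in aged and -0.66 for Runx2 in IkB-deficient cells. Bst2 and Runx2 are themselves on the marker list that chose the plasmacytoid-rich cells. Leaving out top Scrublet scores in IkB-deficient cells gave -0.13 for Bst2, -1.64 for Cd7, -1.33 for Runx2 and -0.23 for Tyrobp. Lat2, whose interval included 1, went there from 0.74 to -1.19, and to -0.86 without plasmacytoid-rich cells. In aged cells H2-Ab1 was at -0.067 without Fcer2a or Fcmr UMIs, and the heat shock list at 0.014 per cell. Leaving out class-switched or plasmacytoid-rich cells was added after the data were seen. Of 7368 other values over 620 results, 6968 stayed within the counting interval, 381 moved and 19 reversed. In the 56 IkB-deficient cells, genes near 20 CPM rest on about 4.02 UMIs.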
